A study of Homo sapiens with 3 samples.

Results

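The regions described here are the long stretches of the human autosomes in which the list of accessible intervals from day 14 neurons, as analysed here, held no entry. Any entry not analysed here would shorten or divide a gap. Distinct intervals were sorted along each autosome, and a gap was kept where 400 kb or more lay between the end of an interval and the start of the next. The autosomes held 63544 distinct intervals and therefore 63522 gaps between neighbours. Of these, 208 reached 400 kb. The 24 that overlapped a centromere, on 20 chromosomes, were set aside, and the other 184 are the gaps reported below. The gaps were thus chosen by the measured positions of the intervals, so lengths and the lack of intervals inside are given as description only.

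Accessibility was measured by ATAC-seq, in which a transposase cuts and tags open DNA. The cells were day 14 neurons made from KOLF2.1J-hNGN2. This is a derivative of KOLF2.1J, a clonal and established line of human induced pluripotent cells, in which the transcription factor NGN2 directs neuronal differentiation. The 3 samples are biological replicates of 1 group with no comparison group, and they were combined by the authors into 1 list. There is no value per replicate, so no comparison below has a replicate error or a p-value, and differences are described by counts, medians and counting intervals.

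Accessible intervals mark promoters and enhancers, and sequence without any is usually packed as heterochromatin, poor in genes, or filled with genes that the cell type does not use. Many such silent genes belong to families that arose by tandem duplication and serve a single tissue, as olfactory receptors do in the nose or late cornified envelope genes in the skin. Most promoters used in all cells are rich in CG pairs (CpG), whereas promoters of tissue-restricted genes are often poor in them. Sequence that occurs in several copies in the genome is a special case, because short reads from it cannot be placed at 1 copy.

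Promoter windows, running from 250 bases before to 50 after a gene start, show what the gaps hold and what borders them. SLC15A4 is shown because its start lies in the only interval between the longest gap and its neighbour, and TMEM132D because it is the longest coding gene inside any gap. The other 3 are 1 window each from the families with the most genes inside. Sequences are from RefSeq for GRCh38.p14, 5′ to 3′ on the gene's strand, and capitals mark CG pairs and the word TATAAA on either strand.
SLC15A4, chr12:128823909-128824208, minus strand: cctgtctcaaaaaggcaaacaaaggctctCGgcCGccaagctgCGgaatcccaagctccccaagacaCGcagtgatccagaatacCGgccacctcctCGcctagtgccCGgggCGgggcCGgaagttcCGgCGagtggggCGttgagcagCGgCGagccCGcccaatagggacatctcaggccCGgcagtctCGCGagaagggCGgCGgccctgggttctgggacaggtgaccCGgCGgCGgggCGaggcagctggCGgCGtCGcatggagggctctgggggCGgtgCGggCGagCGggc
TMEM132D, chr12:129903976-129904275, minus strand: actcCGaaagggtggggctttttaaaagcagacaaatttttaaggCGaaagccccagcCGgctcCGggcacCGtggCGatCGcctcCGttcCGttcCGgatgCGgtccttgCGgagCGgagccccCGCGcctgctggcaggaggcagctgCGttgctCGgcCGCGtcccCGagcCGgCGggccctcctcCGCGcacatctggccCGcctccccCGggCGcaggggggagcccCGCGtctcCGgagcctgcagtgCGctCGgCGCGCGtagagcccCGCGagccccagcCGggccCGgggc
LCE1A, chr1:152827223-152827522, plus strand: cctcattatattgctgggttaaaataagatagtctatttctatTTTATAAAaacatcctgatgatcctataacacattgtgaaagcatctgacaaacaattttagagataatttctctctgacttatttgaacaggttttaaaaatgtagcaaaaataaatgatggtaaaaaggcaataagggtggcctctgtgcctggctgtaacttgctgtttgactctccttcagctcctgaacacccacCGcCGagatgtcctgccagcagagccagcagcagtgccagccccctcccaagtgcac
OR4K1, chr14:19930667-19930966, plus strand: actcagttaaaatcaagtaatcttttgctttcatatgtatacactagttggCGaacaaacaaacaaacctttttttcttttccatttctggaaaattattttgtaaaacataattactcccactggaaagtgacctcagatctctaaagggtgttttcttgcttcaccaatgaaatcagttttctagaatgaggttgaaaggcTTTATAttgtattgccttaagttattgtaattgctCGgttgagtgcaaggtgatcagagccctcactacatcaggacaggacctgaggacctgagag
PRAMEF1, chr1:12791147-12791446, plus strand: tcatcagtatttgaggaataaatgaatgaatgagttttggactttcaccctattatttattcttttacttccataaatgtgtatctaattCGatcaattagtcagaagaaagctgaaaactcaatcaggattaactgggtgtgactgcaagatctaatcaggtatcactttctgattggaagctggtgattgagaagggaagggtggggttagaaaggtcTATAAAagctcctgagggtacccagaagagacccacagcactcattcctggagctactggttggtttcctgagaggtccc
The SLC15A4 window held 31 CG pairs and that of TMEM132D 39. The windows of LCE1A and OR4K1 held 2 each and that of PRAMEF1 held 1. TATAAA was present in the last 3 and in neither of the first 2. The last 3 are not typical of their families in this. Inside gaps, TATAAA was present in 9 of 18 LCE, 33 of 77 olfactory receptor and 4 of 18 PRAMEF windows. LCE1A also had the lowest GC content of the LCE windows, 41.3% against a median of 55.2%.

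The 184 gaps added up to 109.6 Mb, or 4.13% of the autosomal span of 2657 Mb. This span runs between the first and last intervals of each autosome, less the gaps that overlap a centromere. Densities over the autosomal span divide all autosomal genes by this length. Their median length was 492 kb, with quartiles at 431 and 642 kb, and 14 were at least 1 Mb long. The median over all gaps between neighbouring intervals was 23.5 kb. The 3 shortest gaps kept measured 400.4, 401.4 and 405.1 kb, on chromosomes 9, 4 and 13. The 3 longest left out measured 398.3, 398.3 and 398.7 kb, on chromosomes 4, 5 and 8. None of these 6 stretches held a whole coding gene.

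Every autosome had at least 2 gaps. Chromosomes 2 and 4 had the most, with 17 each, and chromosomes 17, 18 and 22 had 2 each. Gaps took 18.4% of the span of chromosome 21, where 10 gaps summed to 7.01 Mb. Elsewhere the share ran from 1.14% on chromosome 17 to 7.53% on chromosome 12. Chromosomes poor in coding genes did not always have a large share: chromosome 18, with 3.71 coding genes per Mb, had 1.20% of its span in gaps, and chromosome 19, with 26.8 per Mb, had 5.14%. Within 5 Mb of a centromere lay 28 gaps with 19.6 Mb, 4 of them on chromosome 21. These held 14.6 pseudogenes per Mb, against 4.39 per Mb in the other 156 gaps and 5.92 per Mb over the autosomal span. Distance was taken to the centromeric band, so gaps on chromosome 9 between 60969202 and 68305606, at 15.5 to 22.2 Mb, count among the 156. Their genes include family copies such as FOXD4L3 and FOXD4L4, so the other gaps are not free of copied sequence. No genome sequence was used here, so unsequenced bases and sequence where reads cannot be placed were not measured, and their part in the gaps was not tested.

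**Figure D1:**
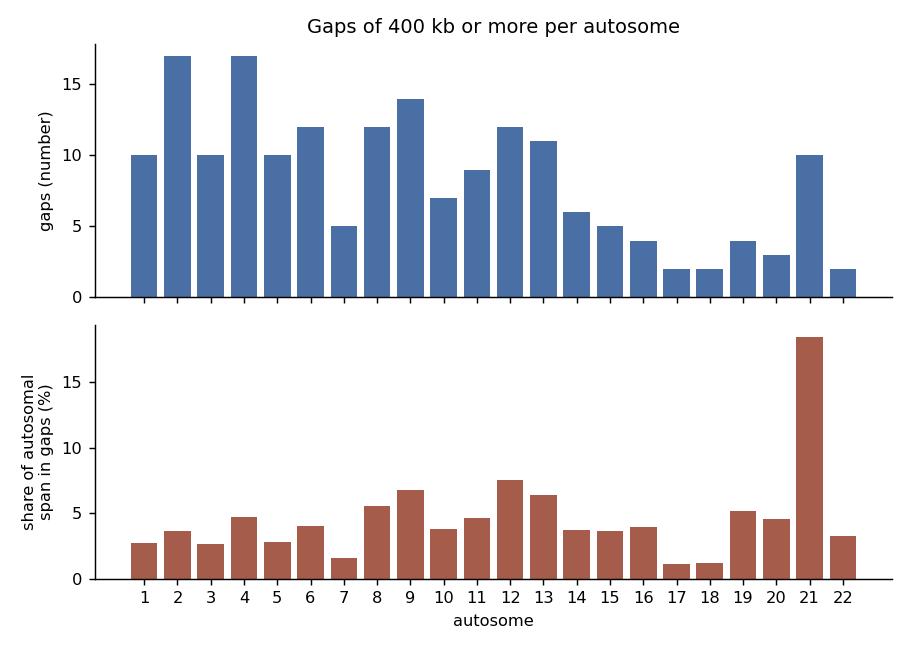
Number of gaps of 400 kb or more (upper bars) and the percentage of each autosome's span they take (lower bars), for the 22 autosomes. Chromosomes 2 and 4 have 17 gaps each, while chromosome 21 stands apart by share, at 18.4%.

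The longest gap covered 3.28 Mb of chromosome 12, from 125539403 to 128823371. It held 61 annotated genes, of which 45 are lncRNA genes and 13 pseudogenes, but only 2 coding genes, LOC107984449 and TMEM132C. TMEM132C, a gene of 441 kb for a membrane protein, starts 555 kb from the nearest border. The start of LOC107984449 lies 1590 kb from a border, the greatest distance among the 205 coding genes inside with a start in the promoter table. A second gap of 1.51 Mb followed at once, from 128824368 to 130335427. Inside it were TMEM132D (832 kb), the glycosyltransferase gene GLT1D1 and FZD10, which encodes a Frizzled receptor for WNT ligands. Together the 2 gaps ran for 4795 kb.

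A single interval of 996 bp separated these 2 gaps, and its summit lay 86 bp from the start of SLC15A4, a lysosomal transporter of histidine and peptides. Its fold enrichment, the authors' ratio of tags at the summit to the local background, was 5.14, and the summit collected 185 tags. The median interval at an end of a coding gene collected 854 tags, so this one was low for its position. The gene runs into the longest gap, which holds 98.1% of it.

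The other gaps of over 1 Mb had varied content. The second longest, 1.78 Mb on chromosome 16 from 31874569 to 33656517, lies 1.64 Mb from the centromere and held 8 coding genes, of which 6 are TP53TG3 copies, beside 34 pseudogenes. The third, 1.57 Mb on chromosome 20 from 54681588 to 56247910, held CBLN4, a secreted organiser of synapses, as its single coding gene. One border of it lies 574 bp from the start of MC3R, a melanocortin receptor gene. On chromosome 10, a gap of 1.46 Mb from 130190967 to 131651251 held TCERG1L, a gene of 219 kb that starts 340 kb from a border. On chromosome 19, a gap of 1.03 Mb from 21852528 to 22882784 lies 1.32 Mb from the centromere. It held 8 zinc finger genes, among them ZNF208, ZNF257, ZNF676 and ZNF729, which encode DNA-binding proteins. The gaps on chromosome 2 (1.18 Mb, with LOC124905368 and LOC124905938) and on chromosome 21 (1.17 Mb, with no coding gene) lie 0.322 and 3.16 Mb from a centromere.

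Gaps fell into 4 classes by the coding genes they touch. A whole coding gene lay inside 44 gaps, which had a median length of 598 kb. No coding gene touched 100 gaps, with a median of 463 kb. A further 29 contained part of a coding gene, with a median of 512 kb, and 11 lay within a single long gene. No annotated gene of any kind lay wholly inside 13 gaps. Coding gene bodies covered 17.9% of the bases in gaps.

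**Figure D2:**
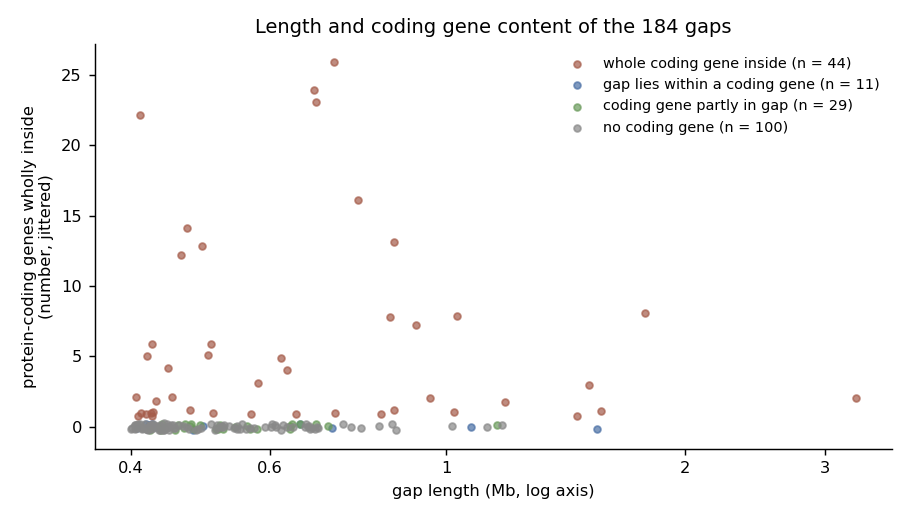
Each point is 1 of the 184 gaps, placed by its length (log axis, in Mb) and by the number of protein-coding genes wholly inside it (jittered), and coloured by class. Most gaps lie at 0, and the gap with the most coding genes, 26, is 0.723 Mb long, far from the longest.

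Wholly inside gaps were 263 coding genes, or 1.38% of the 19126 on the autosomes. This is 2.40 per Mb, against 7.20 per Mb over the autosomal span. Leaving out the gaps within 5 Mb of a centromere left 178. The genes were short, with a median length of 5.37 kb against 24.5 kb for all coding genes. Genes that hold an interval or reach past a gap are not counted, so this density and length follow partly from the rule. The genes inside were also concentrated: 18 gaps with at least 5 coding genes held 221 of the 263 (84.0%), while 16 gaps held a single one. The lncRNA genes inside numbered 500 (2.81% of all) and the pseudogenes 680 (4.32%). Per Mb there were 4.56 lncRNA genes in gaps against 6.70 over the autosomal span, and 6.20 pseudogenes against 5.92. Without the gaps near centromeres 395 pseudogenes remained. Of the microRNA genes, 25 lay inside (1.39%).

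Olfactory receptor genes, which encode odour receptors of the nasal epithelium, were the largest family inside. Of 391 on the autosomes, 94 lay in gaps (24.0%), in 8 different gaps. Gaps near a centromere held 47 of the 94. The cluster on chromosome 11 from 55943291 to 56624624 contained 24 of the 171 olfactory receptor genes on that chromosome, among them OR5F1 and OR8K1. Another gap on chromosome 11 held 3 more. The cluster at the end of chromosome 1 from 247937754 to 248622562 contained 23 of 61 on that chromosome, among them OR2L2 and OR2T1. Chromosome 14 contributed 16 in a gap of 774 kb, including OR4K1, which accounts for 16 of the 24 on that chromosome. Chromosome 6 contributed 12 of 17 and chromosome 17 contributed 11 of 13. On chromosome 17 the gap also held ASPA, the gene for aspartoacylase, which starts 38.6 kb from a border. The gap on chromosome 1 was bordered on both sides by intervals at olfactory receptor genes, at OR2L13 (257 tags) and OR2T11 (143 tags).

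Members of other gene clusters also lay together in single gaps. These groups were picked after the genes inside had been seen. The gap with the most coding genes, 26 in 723 kb on chromosome 1 from 12746637 to 13469425, contained 22 of the 23 PRAMEF genes, a family known from germ cells, and all 4 HNRNPCL genes. The gap on chromosome 1 from 152459061 to 152869874 contained all 19 LCE genes, whose proteins build the cornified envelope of the skin, and was only 411 kb long. A gap of 858 kb on chromosome 19 contained the 10 PSG genes, which encode glycoproteins of the placenta. Another on chromosome 19, of 471 kb, contained 7 of 15 KIR genes and 4 of 11 LILR genes, receptors of natural killer and other immune cells. The inflammatory caspase genes CASP1, CASP4 and CASP5 lay together in a gap of 618 kb on chromosome 11.

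Of 25 lists of coding gene families, 3 had members wholly inside gaps: the olfactory receptors, 6 of 39 beta-defensins and 10 of 497 C2H2 zinc fingers. The 6 beta-defensins, antimicrobial peptides of epithelia that include DEFB115, DEFB116, DEFB118 and DEFB119, lay in 1 gap near the centromere of chromosome 20. The zinc finger share of 2.01% was near the 1.38% of all coding genes. The other 22 lists, with 777 genes, had no member inside. They include 8 lists of neuronal adhesion molecules, receptors and channels with 182 genes, and 4 lists of ribosomal proteins, proteasome subunits and histones with 270 genes. At the share of all coding genes lists of this size would hold few members, so little can be read from a single list at 0. A gap overlapped part of 5 of the 182 neuronal genes (2.75%), against 1.70% of all coding genes. These were CDH8, a cadherin, CNTNAP5, CNTNAP3B and CNTNAP3C of the contactin-associated family, and GABRG1, a subunit of the GABA-A receptor.

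Very long genes contained some of the gaps. CSMD1, a gene of 2.06 Mb on chromosome 8 for a large complement-control protein, spanned the fourth longest gap, from 3284902 to 4833571, and 349 kb of another. Within the gene lay 4 intervals. AGBL4, which encodes an enzyme that trims glutamates from tubulin, is 1501 kb long and spanned a gap of 1075 kb, which took 71.6% of the gene, and 20 intervals had their summits in the rest. The border of that gap was the interval at the AGBL4 start, with 462 tags. EYS, known for its role in photoreceptors, spanned 2 gaps of 717 and 418 kb that were separated by an interval of 424 bp with 175 tags. GPHN, the scaffold of inhibitory synapses, spanned a gap of 407 kb and held 26 intervals elsewhere. The others spanned were PTPRT, CTNNA3, FSTL5, ANKS1B, EXOC4, SUPT3H, THSD7B and EPHA6, each with at least 2 intervals.

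The intervals on either side of the gaps came to 360, because 8 of them had a gap on both sides. Fold enrichment, width and tag count did not enter the choice of gaps. The border intervals had a median fold enrichment of 5.10 (95% interval of the median 4.90 to 5.49) and a median of 169 tags. All autosomal intervals had medians of 5.59 and 238 tags. The median width was 794 bp at the borders and 882 bp for all intervals, but 886 bp at the borders of gaps of at least 1 Mb. By autosome, the border median of fold enrichment was below that of all intervals on 15 of 22. Using all summit entries, rather than 1 per interval, turned the order of the fold enrichments, at 3.94 for borders and 3.84 for all. Tag counts kept their order, at 141 and 189. Tags are not independent molecules after PCR, and the intervals given here cover counting error only.

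Border intervals were seldom at genes. In 30 of 360 the summit was no more than 1 kb from either end of a coding gene (8.33%, Wilson 95% interval 5.90 to 11.6%), against 19.2% of all autosomal intervals. Without the gaps near centromeres it was 20 of 306 (6.54%). With the minimum raised to 1 Mb the share was 22.2%, against the 19.2% of all, but it rests on the borders of only 14 gaps. Both borders lay at coding ends in 4 gaps, and neither border did in 157. For gaps that no coding gene touched, 6 of 200 borders lay at a coding end (3.00%). For gaps with a whole coding gene inside it was 16 of 88 (18.2%). A gap that a coding gene enters from its border cannot be among those untouched, so this contrast is partly fixed by the classes.

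Within each of these positions the fold enrichments of border and all intervals differed less. The 30 border intervals at coding ends had a median fold enrichment of 9.93 and those at coding ends in general 9.77. The 330 elsewhere had 4.98, against 5.15 for all intervals away from coding ends. In tags the medians were 685 against 854 at coding ends, and 162 against 205 elsewhere, so borders collected fewer tags in both classes. The local background was at its floor of 29.2 tags in 172 border intervals (47.8%, Wilson 95% interval 42.7 to 52.9%), against 18.9% of all. The width of the background window was not measured here, and part of that window can lie in the gap itself. A single summit was recorded in 42.5% of border intervals against 33.7% of all, and the highest score of 1000 in 62.5% against 73.7%.

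**Figure D3:**
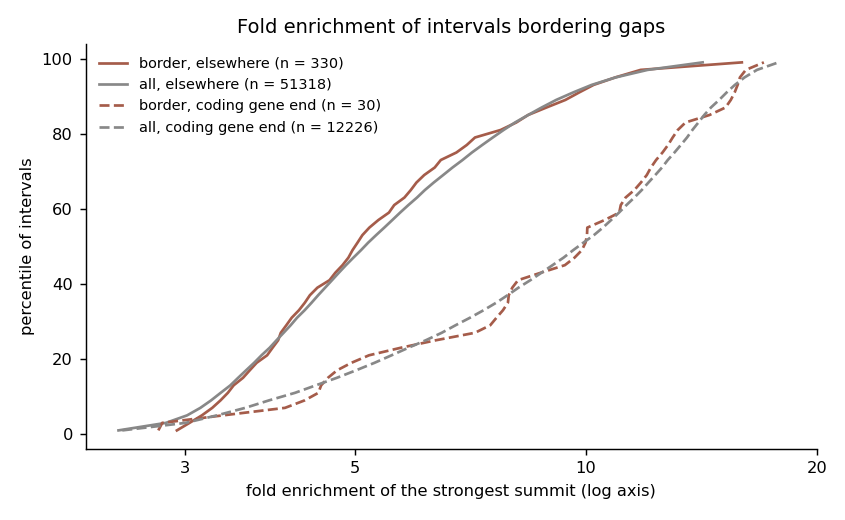
Percentile curves of fold enrichment (log axis) for border intervals and for all autosomal intervals, each split by whether the summit lies within 1 kb of a coding gene end. The pairs of curves run close together, with medians of 9.93 and 9.77 at coding ends and 4.98 and 5.15 elsewhere.

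Individual borders ranged in fold enrichment from 2.67 to 22.6 and in tags from 87 to 1980. The highest fold enrichment, 22.6 with 681 tags, belonged to the interval on chromosome 9 from 62915131 to 62916132, 113 kb from the nearest coding gene. Next came an interval on chromosome 17 from 3048547 to 3049567, at 17.8 with 1524 tags, which borders the olfactory receptor gap. The interval beside ZNF43 on chromosome 19 reached 17.5 with 1492 tags and borders the zinc finger gap. A further pair at 16.1 lay on chromosomes 9 and 5, with 486 and 1066 tags, the latter 291 kb from CDH12. The lowest were at 2.67 on chromosome 21 (143 tags), 2.75 inside TUSC3 on chromosome 8 (89 tags), 2.76 beside PRDM16 on chromosome 1 (213 tags), 2.81 beside FOXD4L3 on chromosome 9 (102 tags) and 2.91 inside CCSER1 on chromosome 4 (87 tags).

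Of the 8 intervals with a gap on both sides, 6 had the local background at its floor. Besides that of SLC15A4, they included an interval of 292 bp with 152 tags on chromosome 16, in a stretch of 2188 kb made of 2 gaps, and an interval of 996 bp with 192 tags inside CSMD1, in a stretch of 2018 kb. Another 3 lay on chromosome 9, the strongest of them with 475 tags and a fold enrichment of 15.8. The last 2 were the one inside EYS and one on chromosome 12 of 323 bp with 104 tags, 774 kb from the nearest coding gene, SLC6A15. Their median width was 476 bp and 6 of the 8 had a single summit. The SLC15A4 interval was the only one of the 8 at a coding end.

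Sequence beyond the borders was sparse as well. In the 100 kb outward from a border, away from the gap, there were on average 1.36 intervals over 368 border sides, against 3.01 from all autosomal intervals in both directions. From 100 to 400 kb there were 4.29 against 8.28. The border value was the lower in each of 20 steps of 20 kb, and its ratio to the general value ran from 0.351 to 0.664. The outward sequence was not used to choose the gaps, but a neighbouring gap can lie in it. The general value is a mean over intervals and not over the genome, so stretches dense in intervals weigh more in it.

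**Figure D4:**
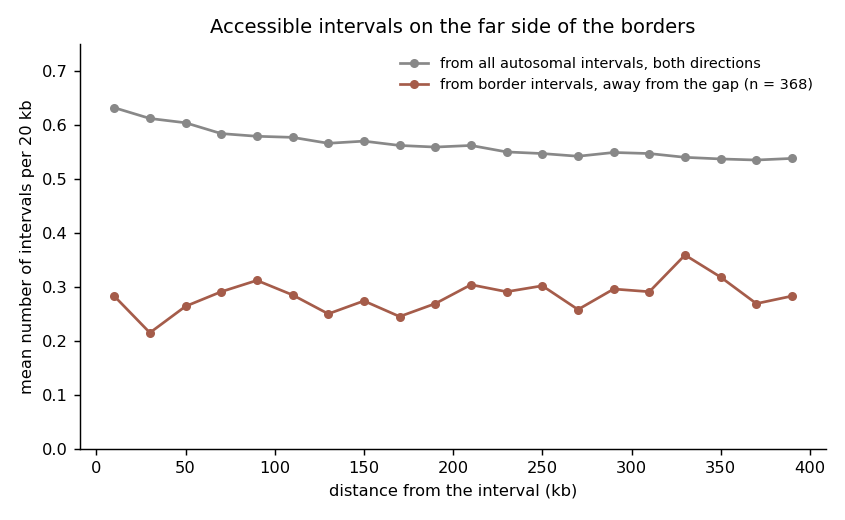
Mean number of accessible intervals in each 20 kb step outward from the 368 border sides (away from the gap) and from all autosomal intervals in both directions. The border line stays below the other over the whole 400 kb, between 0.215 and 0.359 per step.

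Gene starts were found at some borders, and the genes ran either into the gap or away from it. The promoter table gives the strand for 21 autosomes, and chromosome 8 is left out of all promoter results. A coding start lay within 1 kb of the summit in 22 of 337 border intervals (6.53%), against 15.9% of all intervals. In 13 the gene ran into the gap and in 9 away from it. In 10 of the 13 over 90% of the gene body lay in gaps. Of the 22 intervals, the weakest collected 136 tags, at CFAP107, and the strongest 1980, at SUPT3H. DOCK3, a Rac activator enriched in neurons, had 676 tags at its start, and 99.9% of its 709 kb lay in a gap of 709 kb on chromosome 3. At the opposite border lay the start of MANF, a neurotrophic factor of the endoplasmic reticulum, with 1376 tags. STXBP5L, a syntaxin-binding protein, and POLQ, a DNA polymerase, faced each other across a gap of 636 kb on chromosome 3, with 1698 and 834 tags at their starts. The bodies of both lay in that gap, at 99.8% and 99.4%. Among coding genes that reach past a gap, 19 had over 90% of their length in gaps. Of these, 12 had no interval summit between their ends, among them DOCK3, STXBP5L, POLQ, GABRG1, UBE3A and BRINP3.

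The gap behind UBE3A belongs to the imprinted region of chromosome 15. It was picked after its content had been seen, as the gap with the most snoRNA genes, and it lies within 5 Mb of the centromere. UBE3A encodes a ubiquitin ligase whose maternal copy is the active one in neurons, where an antisense extension of the paternal SNRPN transcript runs over it. The gap ran for 481 kb from 24957003 to 25437903. It contained 83 snoRNA genes, including 48 of the SNORD115 series and 30 of SNORD116, and 7 lncRNA genes such as IPW and PWAR1. These 83 were most of the 93 snoRNA genes in all gaps, which are 8.09% of those on the autosomes. The interval at the UBE3A start, 22 bp away, collected 1559 tags with a fold enrichment of 11.1. The border on the SNURF side collected 625 tags with a fold enrichment of 7.29, and 98.9% of UBE3A lay in the gap. Tags from the 2 parental alleles cannot be told apart in these data.

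Promoter sequence itself took no part in the choice of gaps, but a gene wholly inside a gap cannot have an interval at its start. Any difference from all windows is therefore partly fixed by that choice. Other windows without an interval are given for comparison. RefSeq windows were found for 205 of the 263 coding genes inside and for 15101 coding genes in all. The median GC content was 44.7% inside (quartiles 37.0 and 55.7%) and 62.7% over all windows. A window was counted as CpG-rich with at least 50% GC and a ratio of observed to expected CG pairs of at least 0.6. This held for 24 of 205 inside (11.7%, Wilson 95% interval 7.99 to 16.8%) and for 63.7% over all windows. An interval overlapped 68.7% of all coding windows. Windows with an interval were CpG-rich in 85.3%, and windows without an interval outside the gaps in 16.3%. These other windows without an interval had a median GC content of 52.7%. Without the olfactory receptors, the genes inside had a median of 52.8% GC and 23 of 128 windows were CpG-rich, against 53.7% GC and 17.1% for other genes without an interval treated alike. In gaps of at least 1 Mb the median was 58.2% GC and 44.4% of 18 windows were CpG-rich. Of these 18 windows, 5 belong to TP53TG3 copies in 1 gap, and all 5 were CpG-rich with 59.3% GC.

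**Figure D5:**
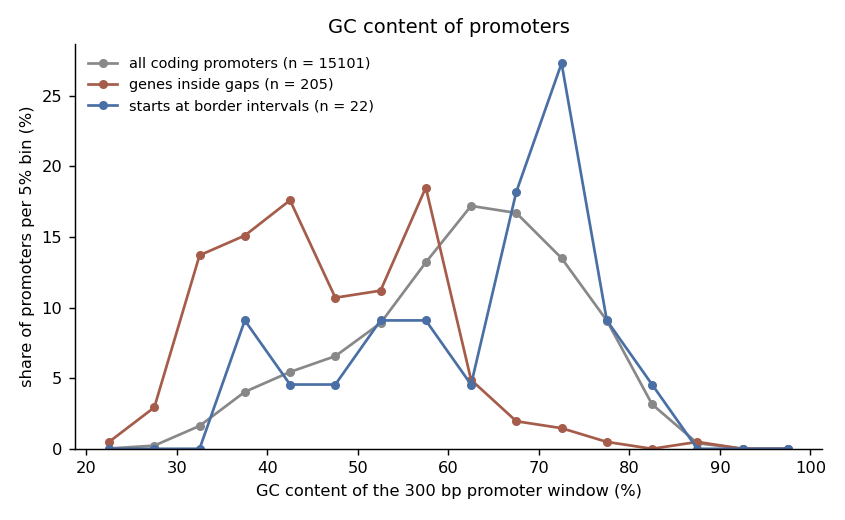
Distribution of GC content in 300 bp promoter windows, as the percentage of windows in bins of 5%, for 205 coding genes inside gaps, 22 coding starts at border intervals and all 15101 coding promoters. The windows inside gaps peak at 40 to 45% and at 55 to 60% GC, while those at borders peak at 70 to 75%.

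Short words in the windows were searched on both strands. TATAAA, the core of the TATA box, was present in 60 of 205 windows inside (29.3%), in 9.83% of all coding windows and in 18.9% of other windows without an interval. Among olfactory receptors the share was 42.9% inside gaps and 33.1% outside, and among the other genes inside 21.1%, against 18.2% of other windows without an interval that are not olfactory receptors. The box GGGCGG, bound by SP and KLF factors, was present in 15.1% inside, 58.7% of all windows and 27.8% of other windows without an interval. Without olfactory receptors the shares were 23.4% inside and 29.3% of other windows without an interval. The E-box CANNTG, recognised by basic helix-loop-helix factors such as NGN2, was found in 77.1% inside, 64.4% of all windows and 77.6% of other windows without an interval. CAGATG, which is among the words matched by CANNTG, was found in 39 of 205 windows inside, 11.7% of all windows and 860 of 4523 other windows without an interval. CCAAT was present in 41.5% inside, 36.1% of all windows and 33.8% of other windows without an interval. The AP-1 word TGACTCA was present in 5.85%, 3.60% and 6.85%, in the same order. In gaps of at least 1 Mb, which hold 18 windows, GGGCGG was present in 50%, and CANNTG (61.1%) and CCAAT (27.8%) were below their shares of all windows. Of these 18 windows, 5 belong to TP53TG3 copies in 1 gap. All 5 held GGGCGG and none held CANNTG or CCAAT, so these shares lean on 1 repeated sequence.

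Families differed in their windows. The 18 LCE windows had 41.3 to 58.3% GC with at most 6 CG pairs, and 9 of them held TATAAA. The 18 PRAMEF windows had 39.3 to 49.0% GC with at most 5 CG pairs, and 4 of them held TATAAA. The 77 olfactory receptor windows had a median of 35.7% GC and 1 CG pair, and 1 of them was CpG-rich, that of OR3A2. Among the 24 CpG-rich windows inside were those of TMEM132D (39 CG pairs), TCERG1L (53), ZFP42 (24) and MEI4 (16). ZFP42 is a marker of pluripotent cells, and MEI4 serves meiotic recombination.

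Sequence copies were frequent inside the gaps. A window was counted as shared when at least 50% of its words of 31 bases occurred in the window of another gene at another place. This held for 49 of 205 windows inside (23.9%) and for 2.03% of all coding windows, and for 4.11% of windows without an interval outside the gaps. All 5 TP53TG3 windows, all 5 PRR20 windows and 13 of 18 PRAMEF windows were shared, but none of the LCE windows and 2 of 77 olfactory receptor windows were. Of the 24 CpG-rich windows, 15 were shared. Among the 156 windows that were not shared the median GC content was 43.0% and 5.77% were CpG-rich. Most olfactory receptor windows are among these 156, and no value for unshared windows outside the gaps stands beside them. Without olfactory receptors, 36.7% of the windows inside were shared, against 4.24% of other windows without an interval treated alike. The comparison of CpG-rich windows without olfactory receptors therefore includes many copies on the inside. The part of unplaced reads in the lack of intervals at shared windows was not tested.

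Marker genes gave little check of the labelled cell type, since the share of neuronal markers with an interval was near that of all coding genes. An interval lay at an end of 67.4% of all autosomal coding genes. Of 12 autosomal neuronal markers, 8 had an interval at a gene end, by the same limit of 1 kb, including MAP2, STMN2, SNAP25 and MAPT, while 0 of 6 markers of other tissues such as ALB and INS had one. ELAVL4, TUBB3, RBFOX3 and SLC17A7 were the neuronal markers without one. All 5 neural progenitor markers had one, and 1 of 5 pluripotency markers, LIN28A. Among markers of other cells of the brain and its vessels, 3 of 7 of astrocytes and oligodendrocytes had one (AQP4, OLIG2 and S100B), as had 1 of 4 of microglia (CX3CR1) and 1 of 4 of fibroblasts and endothelium (COL1A1). Of the 43 autosomal markers, ZFP42 alone lay inside a gap, of 425 kb on chromosome 4, with its start 36.0 kb from a border.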

How the data were processed

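ATAC-seq intervals of 3 replicates were deposited by the authors as 1 IDR optimal list in narrowPeak form, in hg38 per the submitters' processing notes. The aligner and peak caller are not given in the sources used here. For each summit the authors deposited a fold enrichment (a linear ratio), −log10 of a p-value and of a q-value, and a score of unstated scaling. Entries with the same bounds were merged, keeping the summit with the highest −log10 p. Tag counts and local backgrounds were recovered from the deposited ratio and −log10 p, assuming a ratio with a pseudocount of 1 and a Poisson upper tail. The best whole count gave back the deposited −log10 p of each of 141266 autosomal entries to within 0.00079. The depth per sample is unknown.

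Gaps were found on the 22 autosomes, and centromeres were taken as the centromeric bands of hg38, entered by hand from the standard cytogenetic map. Genes and promoter windows came from RefSeq for GRCh38.p14, with 1 window per gene, at the start nearest its outer end. The members, the gene lists and the rule for named genes were chosen with earlier results of these data known. That rule takes the 12 longest gaps and their coding genes, the 12 longest coding genes inside, up to 4 members of each family, the 5 gaps with the most coding genes, the extreme borders, the borders between 2 gaps and the gaps nearest the limit. No test was run, since 1 pooled list has no replicate values. Intervals are 95% intervals, by Wilson's method or by order statistics for medians. Code (Python 3.11.15, numpy 2.4.6, pandas 2.3.3, scipy 1.17.1) was tested on simulated data. Alternatives are given in the closing section.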

Additional observations from a re-analysis of the deposited data

How the results depend on the processing

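Recomputing 25 results under the alternatives gave 170 values, of which 109 stayed within 1.5 times a count or within the 95% interval of a share or median, and 61 did not. With a minimum of 300 kb, 500 kb and 1 Mb there were 417, 90 and 14 gaps, with 189, 68.5 and 19.9 Mb and 421, 174 and 26 coding genes inside, which follows from the limit itself. A score of at least 830 removes intervals and gave 279 gaps with 167 Mb and a border median fold enrichment of 5.86. Keeping the gaps across centromeres raised the total to 234 Mb. The border share at coding ends was 22.2% in gaps of at least 1 Mb, and the median fold enrichment over all summit entries was 3.94. The median promoter GC content became 41.7% at 500 kb, 58.2% at 1 Mb, 52.8% without olfactory receptors and 48.8% without gaps within 5 Mb of a centromere, an alternative that for genes, borders and promoters was chosen after seeing the data, as was leaving out shared windows. Of 95 border and promoter values under alternatives, 90 stayed on the same side of the value over all features, and the cause of the other 5 was not tested. These are the border share at coding ends, the border width (886 against 882 bp) and the shares of CANNTG (61.1 against 64.4%) and CCAAT (27.8 against 36.1%) at 1 Mb, and the fold enrichment over all summit entries. CpG-rich windows took 44.4% at 1 Mb, where 5 of the 18 windows belong to TP53TG3 copies in 1 gap. All 5 were CpG-rich, and none of them held CANNTG or CCAAT. The counts of snoRNA genes, beta-defensins and C2H2 zinc fingers rest mostly on single gaps near centromeres: without such gaps they were 6, 0 and 2. No paired analysis was possible because there is 1 group, pooled into 1 list without values per replicate. Leaving out a replicate was not possible either. Promoters at the stricter score, and genes, borders and promoters with the gaps across centromeres kept, were not run.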

Other observations

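MicroRNA and immunoglobulin genes also lay inside gaps. There were 25 microRNA genes in 19 gaps, or 1.39% of those on the autosomes, close to the 1.38% of coding genes. Their 26 mature forms have 25 different seeds, the bases 2 to 8 that pair with targets. The seed GGAGGCA is the only one shared by differently named forms, hsa-miR-3612 from the longest gap on chromosome 12 and hsa-miR-650 from a gap of 447 kb on chromosome 22. These 2 are shown for that reason with hsa-miR-802, from a gap of 426 kb on chromosome 21, 5′ to 3′ from RefSeq with the seed in capitals.
hsa-miR-3612: aGGAGGCAucuugagaaaugga
hsa-miR-650: aGGAGGCAgcgcucucaggac
hsa-miR-802: cAGUAACAaagauucauccuugu

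Variable segments of immunoglobulins and T-cell receptors, which are joined to working genes only in lymphocytes, had 29 of 248 inside gaps (11.7%), in 4 gaps. The lncRNA genes named LINC had 80 of 2258 inside (3.54%), in 46 gaps, against 2.81% of all lncRNA genes, and LINC00939 and LINC02826 lay in the longest gap. 
Genes that were the only coding gene wholly inside their gap included ADAM29 (508 kb) on chromosome 4 and DAOA (409 kb) on chromosome 13. On chromosome 8 they included MSR1, a scavenger receptor of macrophages (412 kb), and POU5F1B, a copy of POU5F1 (427 kb). The gap of MSR1 also held 62.6 kb of TUSC3. The single genes named here were chosen after their values were seen.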
